A study of Mus musculus with 3 samples.

Results

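The genes described are those of the cytosolic ribosomal proteins in mouse macrophages given adiponectin, a hormone secreted by fat cells. They were taken as every non-control probe whose transcript accession maps to a symbol that starts with Rpl or Rps and a digit, or that is Rplp0, Rplp1, Rplp2 or Rpsa, without the Rps6k kinases and without pseudogene names in -ps. The rule used names alone and no measured value. It found 178 of the 55681 probes, which stand for 88 of the 20660 genes with a symbol. Of these, 86 genes were measured, among 13180 measured genes in all. A gene counted as measured when 3 or more of the 6 channel readings of a probe stood well above background. Rpl3l, a paralog best known from muscle, and Rpl10l, a paralog best known from testis, were on the array and not measured, and both belong to the rule. The 86 hold 46 proteins of the large (60S) subunit and 31 of the small (40S) subunit. The remaining 9 carry a matching symbol without being on either subunit's list: the paralogs Rpl7l1, Rpl22l1, Rpl36al, Rpl39l, Rps27l and Rps4l, the retroposed gene Rps23rg1, the Rps19-binding protein gene Rps19bp1, and Rpl32l. Of the paralogs, Rps4l is annotated as a transcribed pseudogene.

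Each of 3 Agilent 2-colour arrays carried RNA of macrophages treated with adiponectin (12 µg/ml for 18 h) in one dye and RNA of untreated macrophages in the other. Both groups were wild-type C57BL/6J bone marrow cells matured with the macrophage growth factor CSF-1, supplied by the fibroblast line L929 through its culture medium, and then kept in low serum. The labels name the arrays biological replicates 1, 2 and 3 but do not tie them to single animals, so no p-value measures a spread between animals. Each p-value rests on the spread between these 3 ratios, drawn by limma toward that of all tested genes (6.22 prior degrees of freedom). A gene whose own 3 ratios lie far apart can therefore still pass. Cy3 labelled the adiponectin RNA of replicates 1 and 3, and Cy5 that of replicate 2, which is the only array of its dye orientation. Dye orientation and that array therefore cannot be told apart.

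All 7 macrophage markers on the array (Adgre1, Csf1r, Itgam, Lyz2, Mertk, Fcgr1 and Cd14) were well above background in every channel, and none of 4 adipocyte markers was above background in every channel. All 4 neutrophil and precursor markers on the array were above background throughout as well, with log2 changes of 1.27 for Camp, 0.73 for Elane, -2.08 for Ltf and -1.32 for Mpo, as were 2 of 5 fibroblast markers, Col1a2 (0.35) and Dcn (0.79), and 2 of 4 dendritic cell markers, Siglech (0.24) and Zbtb46 (1.51). Of the other types, 1 of 5 B cell markers (Cd79b, -1.69), 1 of 4 T cell markers (Cd3e, 0.96) and 0 of 4 erythroid markers were above background in every channel. Of the macrophage markers, 6 had log2 changes between -2.05 for Fcgr1 and -0.80 for Itgam, and Cd14 had 0.97. The part of other cell types in the results below was not tested. Fewer cells of a type and less RNA per cell cannot be told apart in bulk RNA. No spot was saturated.

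A ribosome is built of ribosomal RNA and one copy of most of these proteins, so cells make the proteins in matched amounts. Their messenger RNAs begin with a run of pyrimidines, the 5′ terminal oligopyrimidine (TOP) motif, through which the kinase mTOR controls how fast they are translated, largely without a change of their level. Several of the proteins are also known for roles off the ribosome: RPL5 and RPL11 with 5S RNA bind MDM2 and so stabilise p53, and RPL13A in human monocytic cells joins a complex that silences inflammatory messages after interferon gamma. Immune cells change their output of ribosomes when they are activated or when growth factor supply changes.

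The promoters of these genes share letters that the choice of members did not use. RefSeq promoter windows of build GRCm38.p6, from 250 bases before to 50 after the start, were at hand for 65 of the 86 measured genes (76 windows). The core CGGAAG, which ETS family factors such as GABPA bind, lay on either strand in 61.8% of these windows, against 16.9% of all 32841 promoter windows. A run of at least 8 pyrimidines within 30 bases of the start lay in 51.3% of the members' windows, against 22.9% of all windows, and both features lay in 31.6% against 3.52%. All windows include those of genes not measured here, and shares among the other measured genes were not computed. The 2 searches can overlap, because CTTCC is itself a stretch of pyrimidines. The windows of 6 genes are shown from 60 bases before to 20 after the start, read 5′ to 3′ in the direction of the gene. They were chosen to set 3 genes that did not pass the test below beside 3 that did, and capitals mark the ETS core or the pyrimidine run near the start. Each window shown holds a mark, while some members' windows, such as that of the called Rpl7l1, hold neither feature. Rplp2 (chr7:141447591-141447670, plus strand) encodes a stalk protein. Rps18 (chr17:33955646-33955725, minus strand) encodes a protein of the 40S head. Rpl38 (chr11:114668520-114668599, plus strand) encodes a large subunit protein known in mouse from skeletal patterning. Those 3 did not pass. Rps3a1 (chr3:86142649-86142728, minus strand) encodes a small subunit protein and fell, the paralog Rps27l (chr9:66946026-66946105, plus strand) fell, and the paralog Rpl22l1 (chr3:28805448-28805527, plus strand) rose.
Rplp2: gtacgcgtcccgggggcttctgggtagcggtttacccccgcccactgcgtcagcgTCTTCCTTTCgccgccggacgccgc
Rps18: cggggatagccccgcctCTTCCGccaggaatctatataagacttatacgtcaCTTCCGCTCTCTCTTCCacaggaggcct
Rpl38: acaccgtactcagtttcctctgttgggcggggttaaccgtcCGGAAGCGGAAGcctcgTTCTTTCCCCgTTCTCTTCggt
Rps3a1: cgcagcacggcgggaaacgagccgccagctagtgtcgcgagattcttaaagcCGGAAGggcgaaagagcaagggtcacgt
Rps27l: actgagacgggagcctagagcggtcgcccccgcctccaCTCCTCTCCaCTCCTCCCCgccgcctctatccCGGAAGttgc
Rpl22l1: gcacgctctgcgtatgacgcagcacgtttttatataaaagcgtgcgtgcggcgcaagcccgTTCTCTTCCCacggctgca
The ETS core stood in the windows of 7 of 11 genes that rose, 4 of 8 that fell and 33 of 46 that did not pass the test. The 44 genes with the core had a median log2 change of -0.01, and the 21 without it had 0.04. The 37 genes with the pyrimidine run had a median of 0.02, and the 28 without it had -0.11. A match is a description of letters and not a binding site.

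The comparison asked which of these messages differed between adiponectin-treated and untreated macrophages. Most ribosomal protein genes had a mean over the 3 arrays in a narrow band around 0. These means lay within 0.25 of 0 on the log2 scale for 70.9%, against 31.0% of all tested genes. Opposite ratios can cancel in such a mean. Of the 25 genes with a probe log2 intensity of 16 or more, 17 were positive on replicate 2 and negative on both other arrays. The median log2 change of the ribosomal protein genes was 0.02 with an interquartile range of 0.31. Over all tested genes the median was -0.17 and the range 0.86. In limma, with Benjamini-Hochberg adjustment over all 13180 genes and a threshold of 0.05, 14 genes rose, 11 fell and 61 did not pass, so 29.1% were called, against 70.6% of all tested genes. Of all tested genes, 24.5% rose and 46.1% fell. Rps23rg1 alone differed by 2-fold or more, while 19.4% of all tested genes were called and differed by that much. The 3 ratios had the same sign for 41 of 86 ribosomal protein genes and for 82.1% of all tested genes.

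The called genes were also counted by class. Among the 77 proteins of the ribosome itself, 8 genes rose and 9 fell, or 22.1%. The large subunit gave 6 rises and 7 falls among 46 genes, and the small subunit gave 2 rises and 2 falls among 31. Of the 9 genes outside the subunit lists, 6 rose and 2 fell, or 88.9%. Of all tested genes 70.6% were called, so this count is not read further. The array medians of all 86 were -0.09, 0.21 and -0.03 on replicates 1, 2 and 3, so the array with adiponectin RNA in Cy5 lay above the other two. Without replicate 2, 13 genes were called higher and 25 lower, and the median over the genes was -0.07. With each array centred on the median of the tested genes, a shift of 0.17 upward, 36 were called higher and 5 lower, and the median was 0.19.

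**Figure D1:**
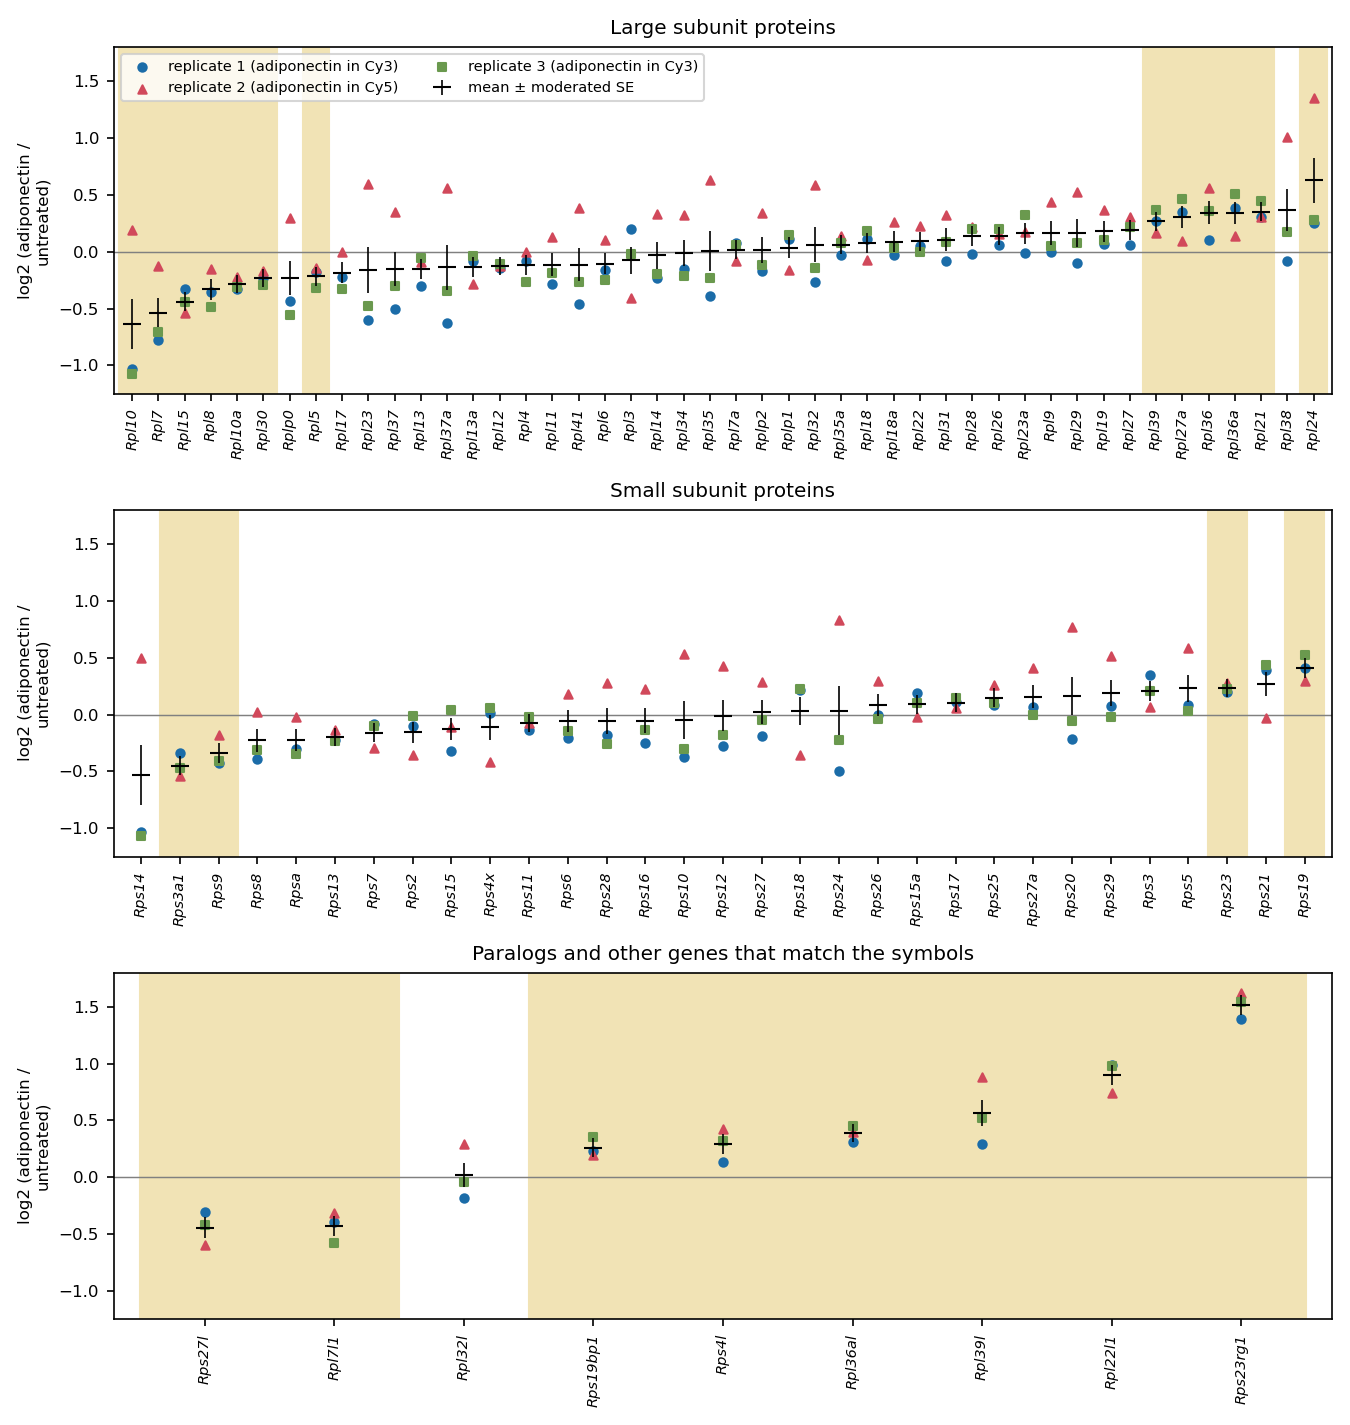
Log2 ratio of adiponectin-treated over untreated macrophages for each of the 86 measured genes (x axis, ordered by mean within a class), with 1 point per array, the mean of 3 arrays as a bar and limma's moderated SE as the vertical line; shaded genes passed an adjusted p of 0.05. Most means lie close to 0, replicate 2 lies apart from replicates 1 and 3 for many genes of both subunits, and Rps23rg1 (1.52) and Rpl22l1 (0.90) stand highest.

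Rps23rg1, a retroposed gene derived from Rps23, changed most. Its normalized probe intensities were 961, 1018 and 1021 in treated cells, against 367, 331 and 351 in untreated cells, for replicates 1, 2 and 3. Every treated value lay above every untreated one. Here and for the genes below, the share of all tested genes without overlap between treated and untreated values was not computed. Of all tested genes, 82.1% had ratios of the same sign on all 3 arrays. Intensities are set side by side across arrays, while the test used the ratio within each array. The log2 change was 1.52 ± 0.09 (moderated SE, n = 3 arrays), a 2.86-fold difference (limma adjusted p = 1.33e-06). Rps23 itself, whose protein sits at the decoding centre, had log2 ratios of 0.20, 0.28 and 0.22 and rose by 0.23 ± 0.08 (limma adjusted p = 0.0282). The Rps23 call was kept in 8 of the 15 other settings apart from median centring, and was lost when any 1 array was left out. Whether the Rps23rg1 probe also binds messages of other copies was not tested, because probe sequences were not used here.

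All 6 measured paralogs passed the test, 4 higher and 2 lower, where 70.6% of all tested genes passed, so the count of 6 is not read further. Rpl22l1, a paralog of Rpl22 that in mouse is held in check by RPL22 protein, had intensities of 14297, 12683 and 14109 in treated cells, against 7198, 7602 and 7177 in untreated cells. Treated and untreated values did not overlap, and the log2 change was 0.90 ± 0.09 (n = 3 arrays, limma adjusted p = 2.91e-05). Rpl22 had ratios of 0.05, 0.22 and -0.00 and did not pass (0.09 ± 0.09, limma adjusted p = 0.373). Rpl22l1 thus exceeded Rpl22 by 0.94, 0.52 and 0.98 on the 3 arrays, a mean of 0.81 ± 0.26 (SD, n = 3). This rests on the brighter Rpl22 probe, and the mean over both measured Rpl22 probes was -0.78.

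Rpl39l, a paralog of Rpl39 best known from testis, was dim, with intensities of 218, 268 and 243 in treated cells, against 178, 145 and 169 in untreated cells. It rose by 0.57 ± 0.12 on the log2 scale (limma adjusted p = 0.00229), and its lowest treated value exceeded its highest untreated one. Over the 15 other settings apart from median centring the change ran from 0.41 to 1.07, the highest with the scanner software's log ratio. Rpl36al, the autosomal paralog of the X-linked Rpl36a, had ratios of 0.31, 0.40 and 0.45, and Rpl36a had 0.39, 0.14 and 0.51. Both rose, by 0.39 ± 0.08 and 0.34 ± 0.10 (limma adjusted p = 0.00262 and 0.0112). The transcribed pseudogene Rps4l rose by 0.29 ± 0.09 (limma adjusted p = 0.0164), with ratios of 0.14, 0.42 and 0.32 at a dim probe.

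The 2 paralogs that fell were Rps27l, a p53 target, and Rpl7l1, whose protein takes part in ribosome assembly. Rps27l had intensities of 18668, 17788 and 16399 in treated cells, against 23092, 26928 and 21951 in untreated cells, with no overlap. Its log2 change was -0.44 ± 0.09 (limma adjusted p = 0.00213). Rpl7l1 had ratios of -0.39, -0.31 and -0.58 and a change of -0.43 ± 0.09 (limma adjusted p = 0.00236).

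The 6 paralogs were set against their canonical partner within each array. Beside Rpl22l1, the difference in log2 ratio kept 1 sign on all 3 arrays for Rps27l minus Rps27 (-0.12, -0.89 and -0.38, mean -0.46), Rps4l minus Rps4x (0.12, 0.83 and 0.26, mean 0.41) and Rpl39l minus Rpl39 (0.02, 0.72 and 0.16, mean 0.30). It did not for Rpl36al minus Rpl36a (-0.07, 0.26 and -0.05) or Rpl7l1 minus Rpl7 (0.38, -0.19 and 0.13). An exact sign-flip permutation test (two-sided) over 3 arrays cannot go below p = 0.25, so these differences carry no call.

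Of the 6 large subunit genes that rose, Rpl24 had the largest mean and the widest spread. RPL24 bridges the subunits. Its log2 ratios were 0.25, 1.36 and 0.28, with replicate 2 far above the others, for a mean of 0.63 ± 0.20 (limma adjusted p = 0.0189). A second, dimmer probe of Rpl24 gave 0.90, 0.91 and 0.86, a mean of 0.89, without that gap between arrays. At the brighter probe, without replicate 2 the mean was 0.26, and with a dye term it had a dye coefficient of 0.55 past the threshold (limma adjusted p = 0.048). Rpl21 had ratios of 0.31, 0.31 and 0.45 and a mean of 0.35 ± 0.08 (limma adjusted p = 0.00461), but its other probes gave -0.30 and -0.12, and the mean over its 3 probes was -0.02. Rpl36 (0.34), Rpl27a (0.30) and Rpl39 (0.27) also rose, all with positive ratios on each array at the brightest probe. These calls were kept in 12, 10 and 11 of the 15 other settings apart from median centring. A dimmer probe of Rpl27a gave -0.48, and its call was lost with the mean over probes.

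In the small subunit, Rps19 and Rps23 rose. RPS19, needed for the maturation of 40S precursors and the gene most often mutated in Diamond-Blackfan anaemia in humans, had intensities of 35283, 38377 and 38877 in treated cells, against 26588, 31371 and 26995 in untreated cells. Its log2 change was 0.41 ± 0.09 (limma adjusted p = 0.00263), with no overlap between treated and untreated values. Rps19bp1, which encodes a nucleolar protein that binds RPS19, had ratios of 0.23, 0.20 and 0.36 and rose by 0.26 ± 0.08 (limma adjusted p = 0.0197).

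Among the falls, Rps3a1, encoding a small subunit protein that contacts initiation factors, had intensities of 17246, 15928 and 15022 in treated cells, against 21791, 23218 and 20812 in untreated cells. All treated values were below all untreated values, and the log2 change was -0.45 ± 0.08 (limma adjusted p = 0.00138). Rps9, whose protein binds ribosomal RNA early in assembly, had ratios of -0.43, -0.18 and -0.41 and fell by 0.34 ± 0.09 (limma adjusted p = 0.00796).

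In the large subunit, 7 genes fell. Rpl7 had intensities of 33665, 47152 and 31438 in treated cells, against 57559, 51440 and 51371 in untreated cells, and its log2 ratios were -0.77, -0.13 and -0.71. The mean was -0.54 ± 0.13 (limma adjusted p = 0.00535), and its 4 probes gave means between -0.54 and -0.15. Rpl15 had ratios of -0.33, -0.54 and -0.45 and a mean of -0.44 ± 0.08 (limma adjusted p = 0.00159). Rpl8, at the peptidyl transferase centre, averaged -0.33, Rpl10a -0.29 and Rpl30 -0.23, each negative on all arrays. A second Rpl8 probe gave 0.07, -0.15 and 0.04, and with the mean over probes neither Rpl8 nor Rpl30 was called. Rpl5 fell by 0.22 ± 0.08 with an adjusted p of 0.046 in limma, a call that was kept in 4 of the 15 other settings apart from median centring. Rpl10, which completes the 60S subunit and shapes the peptidyl transferase centre, was called lower with a mean of -0.64 ± 0.22 (limma adjusted p = 0.0292), although its ratios were -1.03, 0.20 and -1.08.

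Functional groups within the ribosome gave few calls, where 22.1% of the 77 proteins of the ribosome and 70.6% of all tested genes were called. The groups are small, so their counts are not read further. Of the stalk, which recruits elongation factors, none of 4 genes passed: the log2 changes were -0.23 for Rplp0 (ratios -0.43, 0.30 and -0.56, limma adjusted p = 0.207), 0.03 for Rplp1, 0.02 for Rplp2 and -0.13 for Rpl12. In the 5S particle, Rpl5 fell and Rpl11 had ratios of -0.29, 0.13 and -0.19 (mean -0.12, limma adjusted p = 0.33). Around the peptide exit, Rpl39 rose and the other 7 genes had means between -0.19 for Rpl17 and 0.18 for Rpl19. None of 5 genes of the 40S beak and mRNA entry site passed, with the highest value at Rps3 (0.21, limma adjusted p = 0.0669). None of 6 genes of the platform and mRNA exit site passed, from Rps14 at -0.53 to Rps21 at 0.27 (limma adjusted p = 0.103 and 0.0523).

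Of 10 ribosomal proteins with a known role outside the ribosome, Rps19 rose and Rpl5 fell. That is a call in 20%, near the 22.1% of the 77 proteins of the ribosome and below the 70.6% of all tested genes. Rpl13a, the silencing factor of human monocytic cells, had ratios of -0.09, -0.28 and -0.04 and a mean of -0.14 (limma adjusted p = 0.193). Rps6, the substrate of S6 kinases below mTOR, had -0.21, 0.18 and -0.15, a mean of -0.06 (limma adjusted p = 0.617). Rpsa, also known as the laminin receptor, averaged -0.23 (limma adjusted p = 0.0585), Rpl23, which also binds MDM2, -0.16, and Rpl38 0.37 with ratios of -0.08, 1.01 and 0.17 (limma adjusted p = 0.102). A value that did not pass does not show that a gene was unaffected at this number of arrays.

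The spread between arrays followed the brightness of the probe. For the 25 genes whose probe had a mean log2 intensity of 16 or more, the medians on replicates 1, 2 and 3 were -0.27, 0.49 and -0.18, and replicate 2 lay above both other arrays in 25 of 25 genes. For the 31 genes between 15 and 16 the medians were -0.15, 0.10 and -0.04. For the 30 genes under 15 they were 0.09, -0.01 and 0.10. The bright genes had a median standard deviation of 0.45 over the arrays, against 0.14 for those under 15. Among the bright genes 1 was called higher and 1 lower, beside 9 higher and 5 lower under 15. Across the 86 genes, replicate 2 minus the mean of the other arrays had a Spearman correlation of 0.79 and a Pearson correlation of 0.40 with probe intensity, where the genes share the same arrays and dyes.

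Bright probes of other genes moved alike. The 116 other tested genes at or above 16 had array medians of -0.59, 0.40 and -0.51. Rps14, a platform protein of the 40S, had ratios of -1.03, 0.49 and -1.07, and its dye coefficient was 0.77 (limma adjusted p = 0.016). Rpl10 (0.62), Rpl23 (0.57) and Rpl24 (0.55) were the other ribosomal protein genes with a dye coefficient past the threshold. With a dye term in the fit, which leaves 1 residual degree of freedom, 25 genes were called higher and 13 lower. What sets replicate 2 apart at bright probes was not tested.

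**Figure D2:**
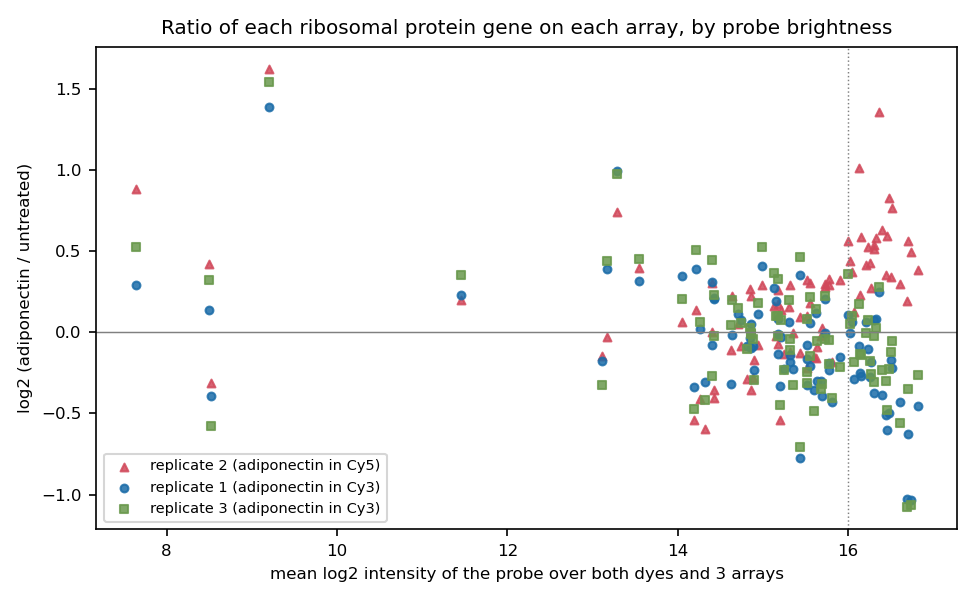
Log2 ratio of adiponectin-treated over untreated macrophages on each array (y axis) against the mean log2 intensity of the probe (x axis), with 1 point per gene and array for the 86 genes. To the right of the dotted line at 16, replicate 2 (adiponectin in Cy5) lies above replicates 1 and 3 (adiponectin in Cy3) for all 25 genes.

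Where a gene had several probes, most of them gave like values. Of 51 genes with more than 1 measured probe, 35 had probe means within 0.25 of each other on the log2 scale, and 7 had means more than 0.5 apart. Rpl22 differed most: its bright probe averaged 0.09, and a second, dimmer probe had ratios of -1.55, -1.42 and -1.98, a mean of -1.65. Averaged over both probes, Rpl22 stood at -0.78. A dimmer probe of Rpl15 gave -1.19 beside -0.44.

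Rps24, whose transcripts end in alternative short exons, had probes for 3 transcript variants, with means of 0.04, 0.39 and 0.76 from the brightest to the dimmest. The variant at 0.76 had ratios of 0.50, 0.92 and 0.85, positive on each array. The brightest had -0.50, 0.83 and -0.23. Rpl27a gave 0.30 and 0.31 at bright probes and -0.48 at a dimmer one. Levels of different probes cannot be compared, and which transcripts each probe detects was not tested.

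**Figure D3:**
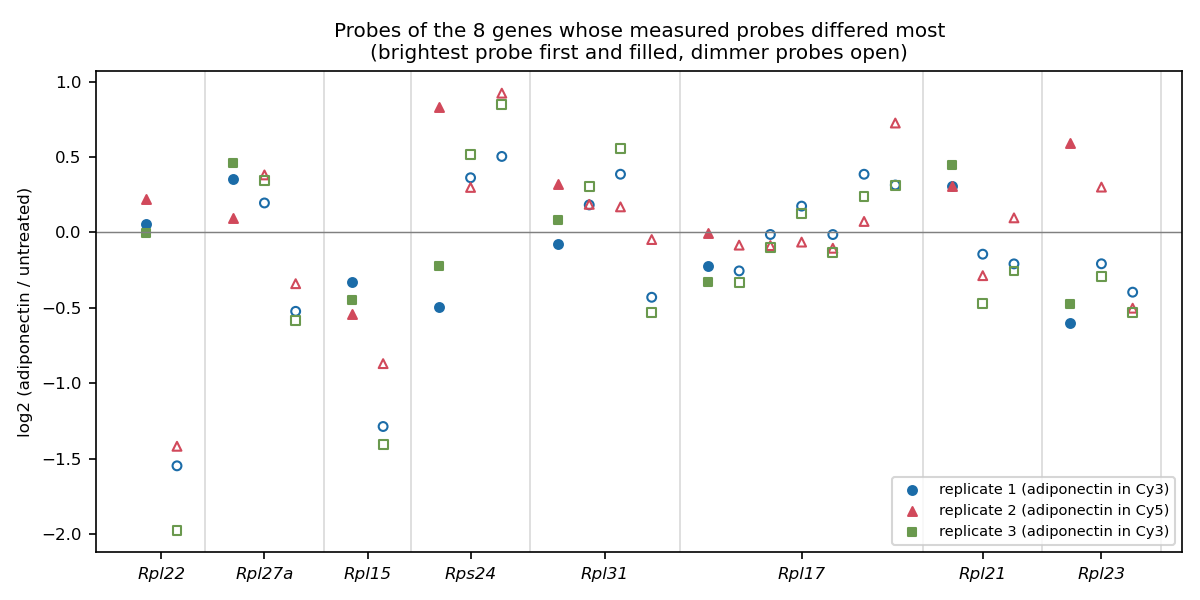
Log2 ratio of adiponectin-treated over untreated macrophages (y axis) for each measured probe of the 8 genes with the widest range between probes (x axis), with 1 point per array, the brightest probe filled and dimmer probes open. The dimmer probes of Rpl22 and Rpl15 lie at -1.65 and -1.19, below their bright probes at 0.09 and -0.44.

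Genes that work with the ribosomal proteins were set beside them. Another 2 ribosomal proteins described here have symbols outside the rule. Fau, whose product is cleaved to RPS30, fell by 0.32 (ratios -0.63, 0.02 and -0.36, limma adjusted p = 0.042), and Rack1, a 40S signalling scaffold, fell by 0.47 (ratios -0.64, 0.11 and -0.88, limma adjusted p = 0.032). Other TOP messages, mainly of elongation and initiation factors, gave 1 rise and 9 falls among 15 measured of 16, with a median log2 change of -0.28. That is a call in 66.7%, near the 70.6% of all tested genes, and the 9 of 15 that fell stand beside 46.1% of all. The 3 lowest were Eef2 (ratios -0.38, -0.66 and -0.82, mean -0.62), the translocation factor, Eef1d (-0.61), an exchange factor for elongation factor 1A, and Eif3e (-0.57), a subunit of initiation factor 3. Btf3, a subunit of the nascent polypeptide-associated complex, was the gene that rose, by 0.30.

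Ribosome biogenesis genes, whose products process ribosomal RNA and assemble the subunits, gave 5 rises and 43 falls among 56, a call in 85.7%, against 70.6% of all tested genes, with 76.8% lower, against 46.1% of all, and a median log2 change of -0.69. Npm1 is on this list and on that of TOP messages. The 3 lowest were Sdad1 (ratios -2.23, -2.49 and -2.70, mean -2.48), Pes1 (-2.25), part of a complex of 60S maturation, and Heatr1 (-1.97), a factor for ribosomal RNA transcription and early processing. A second probe of Sdad1 gave 0.04 and one of Pes1 gave -0.51. Rcl1 (ratios 2.75, 2.72 and 2.51, mean 2.66), Rrs1 (0.95) and Gnl3 (0.43) were the highest. Rcl1 is known in yeast for a role in 40S processing. Beside these, the median of 0.02 of the ribosomal proteins lay higher, as it also lay above the median of all tested genes in each setting tried. That distance ran from 0.03 without the filter on dim probes to 0.28 without replicate 1. Centring the arrays on the tested genes moves both medians alike, so it could not change the distance of 0.19. The lists were described by counts and medians and not tested against each other.

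**Figure D4:**
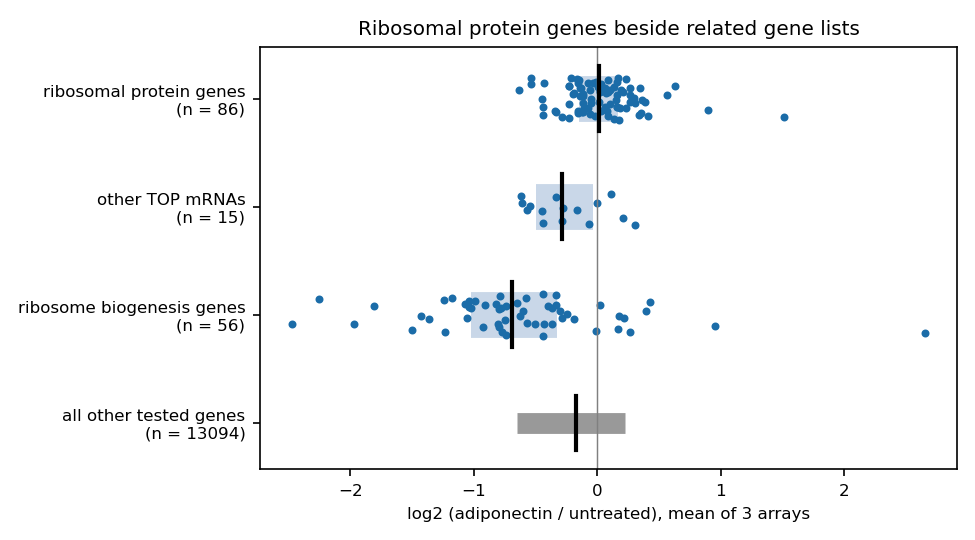
Mean log2 ratio of adiponectin-treated over untreated macrophages (x axis) for the ribosomal protein genes, the other TOP messages and the ribosome biogenesis genes, with 1 point per gene, a wide bar for the interquartile range and a black line for the median; for all other tested genes only the bar and median are drawn. The medians are 0.02, -0.28, -0.69 and -0.17, from top to bottom.

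The level of 0 depends on the normalization, so the counts do too. Loess is meant to bring the average log ratio over all spots to 0 at each intensity. At 16 or more on the log2 intensity scale, the 25 ribosomal protein genes had array medians of -0.27, 0.49 and -0.18. The 116 other tested genes there had -0.59, 0.40 and -0.51. Loess thus left the medians of these bright genes away from 0 on each array. With median centring in its place, the median of all tested genes was -1.03 and that of the ribosomal proteins -0.98, so the distance between them was 0.05, against 0.19 as reported. In that setting limma called 0 ribosomal protein genes and 0 of all genes, with 1 ribosomal protein gene and 5314 genes at an unadjusted p under 0.05. In the other 15 settings, 10 of the 25 calls were kept throughout: the rises of Rps23rg1, Rpl22l1, Rpl39l, Rps19 and Rpl36al and the falls of Rpl7, Rps3a1, Rps27l, Rpl15 and Rpl7l1.

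**Figure D5:**
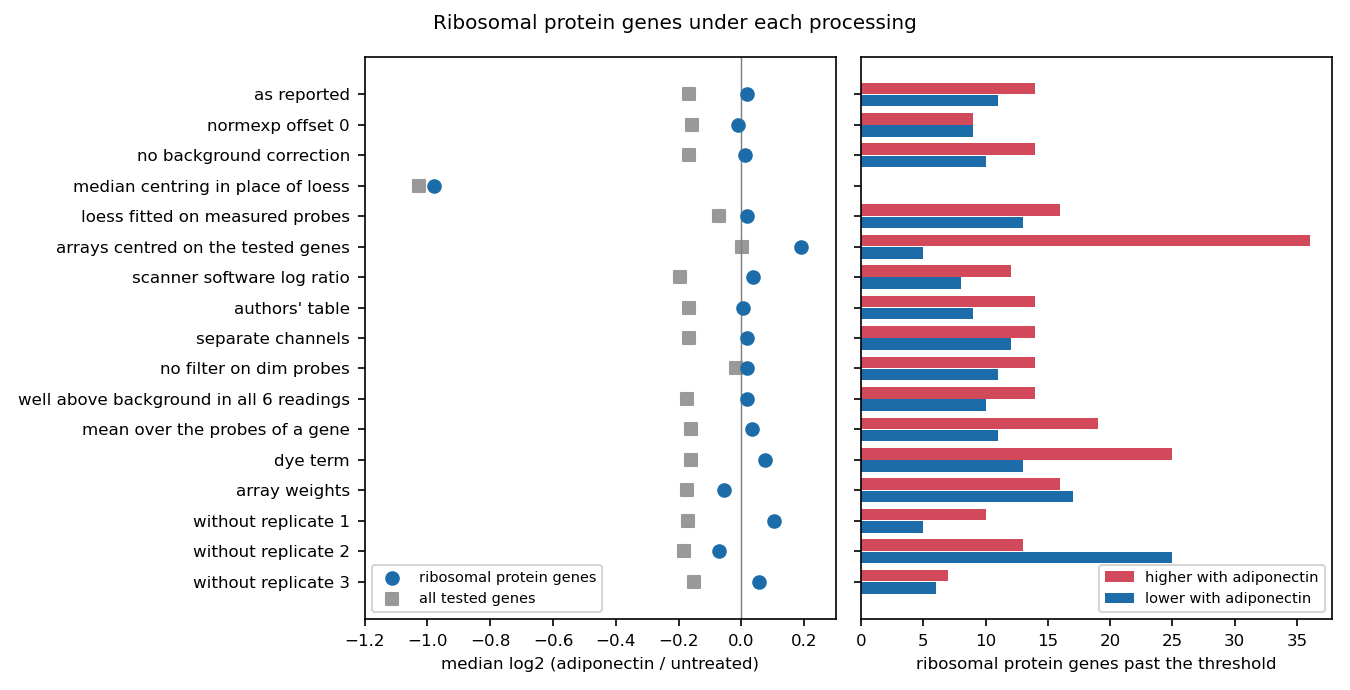
Left, median log2 ratio of adiponectin-treated over untreated macrophages (x axis) under each processing (y axis) for the ribosomal protein genes (circles) and all tested genes (squares); right, number of ribosomal protein genes called higher (red) or lower (blue). The median of the ribosomal proteins lies to the right of that of all genes in each row, and the counts range from 0 and 0 with median centring to 36 higher and 5 lower with arrays centred on the tested genes.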

How the data were processed

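Per the file headers, the arrays were quantified with Agilent Feature Extraction 10.7.3.1 for a probe design on mouse build mm9. The deposited intensity columns hold, per the file headers, the median brightness of each spot and its local background in each dye, without normalization. The deposited log10 ratios are Cy5 over Cy3 of signals processed by the scanner software, per the file headers. In a check, 75.5% of spots matched the log10 ratio of their processed signals to within 0.001. Why the other spots differed was not tested. The authors also deposited log2 values for each array, made in a way not given in the sources read. These values correlated at 0.994, 0.990 and 0.992 with treated over untreated ratios, which gave their direction. One protocol text in the labels gives the dose in mg/ml, and the unit of the treatment labels was used.

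Signals were corrected with normexp (offset 50) and loess in limma 3.58.1 (R 4.3.3), turned to treated over untreated by the labelled dyes, and tested with lmFit and eBayes over 3 arrays. Outlier spots were left out after normalization. Symbols came from RefSeq (assembly GRCm38.p6): 27235 of 55681 probes matched 1 symbol. The brightest measured probe stood for a gene. Every ± beside a log2 change is limma's moderated SE unless SD is written. The procedure was tested on simulated independent ratios with few changed genes and no effect of dye or brightness. That test therefore does not bear on calls at bright probes, where replicate 2 lay apart. Symbols in -ps and a number (2 probes) were left out with those in -ps.

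The members, lists and named genes were chosen with earlier results of these data known. Named by rule were the 8 largest rises and 8 largest falls among called genes with 1 sign on all arrays, the stalk, 5S, paralog and extra-ribosomal lists, and the 3 highest and 3 lowest called genes of other lists. Other genes were named after their values were seen. The alternatives changed the background correction, normalization, centring, values, filter, probe rule, dye term, array weights, arrays and members. One gene of a related list is not reported here.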

Additional observations from a re-analysis of the deposited data

How the results depend on the processing

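The median of the ribosomal protein genes, 0.02 as reported, turned negative with a normexp offset of 0 (-0.011), with array weights (-0.056), without replicate 2 (-0.070) and with median centring (-0.98), and was 0.19 with arrays centred on the tested genes. Leaving out each array in turn gave medians from -0.070 to 0.104, with 7 to 13 genes called higher and 5 to 25 lower. In place of 14 higher calls, 9 were found with offset 0, 25 with a dye term, 36 with arrays centred on the tested genes, 9 without Rps19bp1 and the paralogs, and 8 among structural proteins alone, an alternative chosen after seeing the data. In place of 11 lower calls, 17 were found with array weights and 5 with arrays centred on the tested genes. With median centring limma called 0 in both directions, and the medians were -1.37 for the 2 ribosomal proteins outside the rule, -1.33 for other TOP messages and -1.63 for ribosome biogenesis genes. With arrays centred on the tested genes these medians were -0.11 for TOP messages and -0.52 for biogenesis genes, and with loess fitted on measured probes -0.55 for biogenesis genes. With median centring every called rise but that of Rps23rg1 (0.42) turned negative. Among the genes named by rule these were Rpl22l1 (-0.21), Rpl24 (-0.35), Rpl39l (-0.13), Rps19 (-0.62), Rpl36al (-0.71), Rpl21 (-0.71), Rpl36a (-0.73) and Rps4l (-0.68). The others were Rpl36 (-0.65), Rpl27a (-0.71), Rpl39 (-0.77), Rps23 (-0.77) and Rps19bp1 (-0.91). Of the genes named by rule that were not called, Rpl38 (-0.63), Rps3 (-0.86), Rpl22 (-0.95), Rplp1 (-0.97) and Rplp2 (-0.95) turned as well. So did every other uncalled gene with a positive mean, such as Rps21 (-0.85), Rpl19 (-0.81) and Rps24 (-0.93). With the mean over probes the sign turned, among the genes named by rule, for Rpl21 (-0.024), Rpl22 (-0.78), Rpl11 (0.0057) and Rps6 (0.0061). The causes were not tested. The slide as a block was not run, because all arrays share 1 slide and 1 scan. Precision is limited by 3 arrays with unequal dye orientations, and probe specificity among ribosomal protein copies was not tested.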
